A study of Mus musculus with 117 samples.

Results

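The axon guidance ligands and receptors described here are the protein-coding mouse genes of 6 families, chosen by symbol alone: the semaphorins of classes 3 to 7, the plexins and neuropilins, the ephrins, the Eph receptors, the Slits and Robos, and the netrins with Dcc and the Unc5 receptors. The rule found 69 of the 27179 genes in the count files. They comprised 20 semaphorins (7 secreted class 3 and 13 membrane-bound), 9 plexins and 2 neuropilins, 8 ephrins, 14 Eph receptors, 3 Slits and 4 Robos, and 4 netrins with Dcc and 4 Unc5 receptors, which makes 35 ligands and 34 receptors. The rule used no measured value, though it was set with earlier results of these data known. The 117 libraries came from mouse spinal cord, in which ribosomes tagged in astrocytes were immunoprecipitated so that the RNA on them could be sequenced (RiboTag). The RNA that did not bind was sequenced as well and is called flow-through. There were 70 astrocyte libraries and 47 flow-through libraries, sampled before and after a crush spinal cord injury (SCI) and over postnatal development.

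Guidance molecules steer growing axons and migrating cells during development, when a growth cone reads secreted or membrane-bound cues through receptors that act on its actin and microtubules. Class 3 semaphorins signal through neuropilins that partner with plexins, and most membrane-bound semaphorins bind plexins directly. Ephrins and Eph receptors are both held at cell surfaces and signal in both directions at contacts between cells, where they keep cell populations apart. Slits signal through Robos, and netrins attract axons through Dcc or repel them through Unc5 receptors. Several of these ligands have been studied as inhibitors of axon growth around spinal cord lesions.

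The Aldh1l1 group carried Aldh1l1-CreERT2, a tamoxifen-induced Cre driven by an astrocyte gene, together with the RiboTag allele. It comprised uninjured mice (n = 4) and mice 2 days (n = 5), 5, 14, 28, 42 and 70 days (n = 4 each) after SCI, all female, with 4 further males at 5 days and 4 at 14 days. The mGfap group carried the 73.12 GFAP Cre with RiboTag and comprised mice 14 days after SCI (n = 5, female) and uninjured mice of postnatal day P0 (n = 4, male), P3 (n = 3), P7 (n = 3), P14 (n = 5), P21 (n = 4), P35 (n = 4) and P63 (n = 5, 3 of them male). This Cre is active from development on, so it also tags cells that descend from GFAP-expressing progenitors. Mice with SCI were young adults of 2 to 4 months on a C57BL/6 background, and controls and injured mice of a line carried the same alleles. For the Aldh1l1 RiboTag mice, uninjured ones included, the authors give 3 to 4 months. A tissue block around the lesion at spinal level T10 was used, and each library came from 1 animal. The libraries held 40710428 to 136008399 counts, with a median of 95831369. One flow-through library at 5 days was labelled male although its title named no sex, and it was kept with the other 3.

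Levels are given in CPM (counts scaled to library size, within each comparison). Changes are log2 fold changes ± SE from edgeR's quasi-likelihood test, with p-values adjusted over all genes tested, and a gene is called higher or lower where its adjusted p lay under 0.01. In the tagged RNA of uninjured Aldh1l1 mice the summed level of 12 astrocyte markers was 49435 to 58355 CPM, that of 12 microglia and macrophage markers 55 to 107 CPM and that of 10 neuron markers 470 to 553 CPM. After SCI the astrocyte markers stood at 21609 to 29917 CPM at 2 days and 38889 to 47673 CPM at 14 days. The microglia and macrophage markers, all 12 detected, stood at 1472 to 2550 CPM at 2 days, 14481 to 18607 CPM at 5 days, 10547 to 15822 CPM at 14 days and 1550 to 4782 CPM at 70 days, and 11 or 12 of the 12 were called higher at each time. The 10 neuron markers stood at 188 to 285 CPM at 2 days and 96.6 to 115 CPM at 14 days, with 7, 8, 8, 8, 10 and 6 of 10 called lower over the 6 times. The 8 stroma markers stood at 336 to 772 CPM in uninjured libraries and 1205 to 1786 CPM at 14 days, when 6 were higher. Of 6 ependymal markers 5 were lower at 2 days, Pifo being at 0, and 4 were higher at 14, 28 and 42 days and 5 at 70 days. The authors report some of these markers as upregulated by reactive astrocytes too, among them Trem2, Tyrobp, C1qa, Lyz2 and the ependymal Cfap126. The part of other cells, or of astrocytes, in the marker levels was not tested, nor was that of other cells in the results. In such bulk samples, fewer cells of a type and less RNA per cell cannot be told apart.

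In uninjured astrocytes the guidance RNAs with the highest levels per transcript length were those of Plxnb1, the plexin that binds Sema4d, with 66.6 ± 15.4 RPKM (reads per kilobase of exon scaled to library size, SD, n = 4), Sema6d (54.7 ± 6.98), Sema3b (54.1 ± 5.2), Plxnb2 (23.4 ± 2.61) and Ntn1 (21.3 ± 2.17). The SDs of Plxnb1, Sema6d and Sema3b overlapped, as did those of Plxnb2 and Ntn1. Semaphorins, plexins and a netrin thus made up the top of the order, followed by Sema4a (19 ± 2.51 RPKM), the ephrins Efnb3 (18.9 ± 5.72) and Efna2 (12 ± 1.18), and the Eph receptor Epha4 (11 ± 1.47). The lowest level was that of Robo3 at 0.0185 RPKM.

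After SCI most guidance genes changed in the tagged RNA, and more of them fell than rose in the first days. All 69 were tested in the time course. At 2 days 17 were higher and 31 lower than in uninjured mice, against 30.2% and 29.9% of all 18205 genes tested, so the members' shares were 24.6% and 44.9%. At 5 days 16 were higher and 30 lower, against 28.7% and 28.1% of all genes. The balance evened out later. At 14 days 22 were higher and 20 lower (24.5% and 22.8% of all genes), at 28 days 22 and 21 (22.8% and 19.1%), at 42 days 16 and 20 (23.3% and 20.0%), and at 70 days 18 and 21 (23.9% and 21.5%). The median log2 change of the 69 members was -0.397 at 2 days, -0.421 at 5 days, -0.191 at 14 days and -0.173 at 70 days, where the median of all genes was -0.041, -0.016, -0.018 and 0.048.

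Over the whole course 62 of the 69 members passed the test at 1 or more times, a share of 89.9% against 81.0% of all genes. Of these, 24 were only ever higher, 34 only ever lower and 4 (Efna1, Ephb6, Sema4b and Sema6b) both. The members called higher at all 6 times numbered 9, a share of 13.0% against 10.6% of all genes: the secreted semaphorins Sema3a, Sema3c and Sema3f, the neuropilins Nrp1 and Nrp2, the plexins Plxnc1 and Plxnd1, and the Eph receptors Epha2 and Ephb2. Those called lower at all 6 times numbered 12, a share of 17.4% against 9.38%: Efna2, Efnb3, Epha4, Epha10, Ephb3, Plxna4, Plxnb1, Robo1, Robo2, Sema4g, Sema6c and Unc5a. Members at no time past the threshold were Dcc, Efnb1, Efnb2, Robo4, Slit1, Unc5c and Unc5d.

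**Figure D1:**
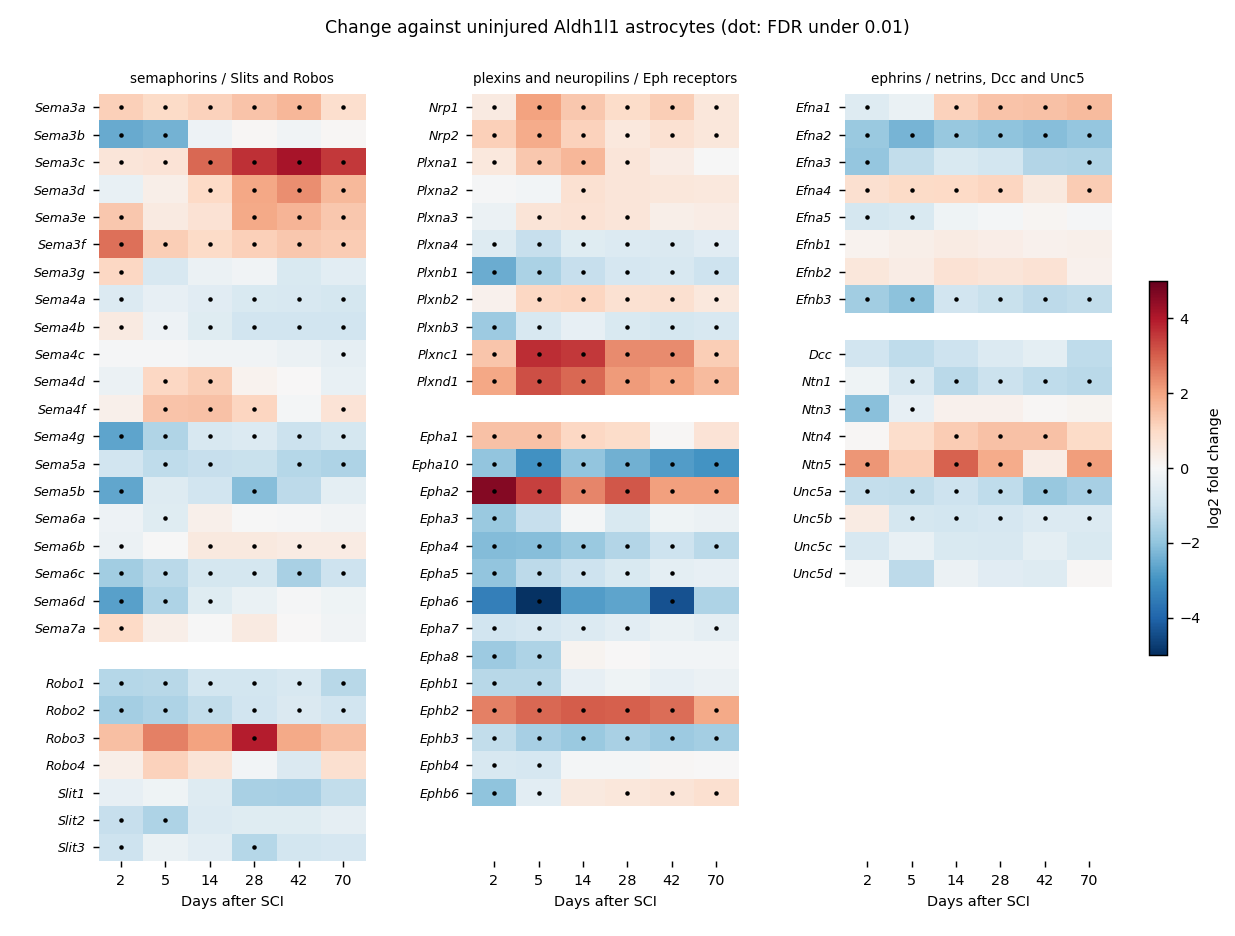
Heat map of log2 fold change against uninjured mice (colour, scale from -5 to 5) of all 69 guidance genes in Aldh1l1 astrocyte libraries, genes in rows by family and days after SCI in columns, with a dot where the adjusted p was under 0.01. The Eph receptors show 10 of 14 genes lower at 2 days beside 3 higher, whereas the plexins and neuropilins show 8 of 11 higher at 14 days.

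The promoters of 4 receptors among the 9 that were higher at every time are shown, because these had the largest rises among the receptors. Each runs from 250 bases before to 50 bases after the start listed for that promoter (GRCm38.p6), 5′ to 3′ on the gene's strand. The RefSeq genes began on that strand at 141301221 (Epha2), 115995339 (Plxnd1), 136836326 (Ephb2) and 94945015 (Plxnc1). Only the Epha2 window was thus set on the outermost start of its gene, and those of Plxnd1 and Ephb2 lay wholly inside the gene. Capitals mark the GC-box core GGGCGG or its complement CCGCCC, searched on both strands.
Plxnd1, chr6:115994956-115995255, minus strand: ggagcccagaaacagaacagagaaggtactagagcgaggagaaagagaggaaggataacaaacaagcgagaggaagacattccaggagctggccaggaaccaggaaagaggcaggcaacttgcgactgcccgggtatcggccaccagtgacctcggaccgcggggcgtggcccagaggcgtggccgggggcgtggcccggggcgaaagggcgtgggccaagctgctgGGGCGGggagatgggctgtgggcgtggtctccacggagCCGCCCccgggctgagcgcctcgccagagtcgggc
Plxnc1, chr10:94944796-94945095, minus strand: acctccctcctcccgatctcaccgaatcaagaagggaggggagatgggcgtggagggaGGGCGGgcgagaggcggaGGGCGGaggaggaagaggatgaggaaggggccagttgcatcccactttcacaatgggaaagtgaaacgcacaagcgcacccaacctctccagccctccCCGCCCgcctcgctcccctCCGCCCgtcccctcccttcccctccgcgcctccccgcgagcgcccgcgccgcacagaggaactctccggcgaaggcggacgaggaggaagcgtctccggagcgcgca
Epha2, chr4:141300971-141301270, plus strand: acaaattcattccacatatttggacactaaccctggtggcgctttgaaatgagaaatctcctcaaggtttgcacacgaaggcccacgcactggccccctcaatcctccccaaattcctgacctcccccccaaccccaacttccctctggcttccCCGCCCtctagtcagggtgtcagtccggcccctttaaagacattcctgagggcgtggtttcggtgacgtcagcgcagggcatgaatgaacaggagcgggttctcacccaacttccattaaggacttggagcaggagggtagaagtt
Ephb2, chr4:136835963-136836262, minus strand: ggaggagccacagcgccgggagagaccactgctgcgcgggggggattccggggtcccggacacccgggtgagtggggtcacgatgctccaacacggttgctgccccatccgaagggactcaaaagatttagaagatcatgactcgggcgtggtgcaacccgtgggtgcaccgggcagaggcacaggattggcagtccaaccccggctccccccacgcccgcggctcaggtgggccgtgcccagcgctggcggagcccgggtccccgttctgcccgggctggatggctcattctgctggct
The core occurred 2 times in the Plxnd1 window, 4 times in that of Plxnc1 and 1 time in that of Epha2, and these letters were not in the Ephb2 window. Of the 75 promoters listed for 59 of the 69 members, 53 (70.7%) held the core, against 35.7% of all 32851 promoters of this length. It was in 6 of the 8 promoters of members higher at all 6 times (75%) and in 8 of the 13 promoters of members lower at all 6 times (61.5%). A match of these letters is a description of the window and not a binding site.

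Semaphorins, the largest family, moved in both directions, and the 3 that rose at every time were all secreted. Of the 20, 7 were higher and 7 lower at 2 days, 5 and 7 at 5 days, 7 and 6 at 14 days, 7 and 5 at 28 days, 6 and 5 at 42 days, and 7 and 6 at 70 days. For these counts and those of the other families, the shares of all genes given above for each time are the background. Sema3c, a secreted ligand of neuropilins, was measured at 8.03, 9.92, 8.8 and 4.43 CPM in the 4 uninjured libraries. It stood at 65.7, 54.3, 54.8 and 53.1 CPM at 14 days and 124, 154, 145 and 124 CPM at 42 days. Every library from 14 days on lay above every uninjured library, and the log2 change reached 4.13 ± 0.21 at 42 days (adjusted p = 8e-15). The early rise was small, 0.60 ± 0.18 at 2 days and 0.68 ± 0.19 at 5 days, and rested on single libraries. Without uninjured replicate 4 it was 0.41, adjusted p = 0.028 at 2 days and 0.50, adjusted p = 0.011 at 5 days. Leaving out uninjured replicate 1, replicate 3 or 4 at 2 days, or replicate 4 at 5 days also ended the early call (log2 changes of 0.47 to 0.61, adjusted p between 0.01 and 0.023).

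Sema3a, the secreted semaphorin best known for collapsing growth cones, was at 9.01, 8.9, 9.07 and 5.53 CPM in uninjured libraries and at 26.9, 29.7, 23 and 23.1 CPM at 42 days, with no overlap and a change of 1.66 ± 0.19 (adjusted p = 1.3e-08). Its other changes lay between 0.84 at 70 days and 1.44 at 28 days. Sema3f, which signals through Nrp2, peaked early, from 0.746, 1.93, 0.571 and 1.00 CPM to 7.77, 7.63, 6.61, 7.33 and 6.03 CPM at 2 days (2.73 ± 0.26, adjusted p = 2.8e-10). All 5 libraries at 2 days exceeded all uninjured ones, and later means were 2.04 to 2.73 CPM. Its 14-day rise of 0.94 ± 0.26 became 0.80, adjusted p = 0.016 without uninjured replicate 1 and 0.74, adjusted p = 0.016 without replicate 3.

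Sema3b, also secreted and abundant in uninjured astrocytes, fell and came back. Its levels were 227, 258, 232 and 204 CPM in uninjured libraries, 22.1, 49.8, 42.6, 49.6 and 37.9 CPM at 2 days, 41.9, 36, 36.1 and 66 CPM at 5 days and 204, 155, 186 and 219 CPM at 14 days. The early groups did not overlap with the uninjured one (-2.51 ± 0.20 at 2 days and -2.36 ± 0.21 at 5 days), and from 14 days on the difference did not pass the test (log2 changes of -0.27 to 0.06). The membrane-bound Sema6d showed the same order of levels, with 338, 389.5, 460.5 and 389 CPM in uninjured libraries, 55.1, 67, 62, 58.6 and 57.5 CPM at 2 days and 351, 468, 361 and 343 CPM at 42 days. It fell by 2.72 ± 0.12 on the log2 scale at 2 days (adjusted p = 3.8e-17), still by 0.60 at 14 days, and was not called from 28 days on.

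Sema4g and Sema6c, both membrane-bound, stayed low. Sema4g went from 21.2, 23.7, 28.4 and 25.6 CPM to 3.25, 4.18, 3.88, 3.55 and 4.9 CPM at 2 days (-2.65 ± 0.13, adjusted p = 8e-17) and was at 13.6, 11.7, 12.4 and 15.6 CPM at 70 days (-0.89 ± 0.13). Sema6c had changes between -1.76 at 2 days and -0.87 at 14 days. Sema4b and Sema6b each crossed over. Sema4b was 0.43 at 2 days and -0.95 at 28 days, while Sema6b was -0.28 at 2 days and 0.51 at 14 days.

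Plexins and neuropilins, the receptors of the semaphorins, were the family with the largest share of rises. Of 11, 5 were higher and 3 lower at 2 days, 7 and 3 at 5 days, 8 and 2 at 14 days, 7 and 3 at 28 days, and 5 and 3 at both 42 and 70 days. Plxnd1, a receptor of Sema3e and other class 3 semaphorins, was at 16.6, 28.1, 21.6 and 15.9 CPM in uninjured libraries. It was at 63, 89, 88, 73.8 and 76.7 CPM at 2 days, 203, 214, 177 and 181 CPM at 5 days and 58.8, 54.7, 63.3 and 70.7 CPM at 70 days. No injured library overlapped with the uninjured ones, and the change peaked at 5 days at 3.24 ± 0.14 (adjusted p = 2.8e-17), a 9.42-fold level, and was 1.59 ± 0.13 at 70 days. The coreceptor Nrp1 rose from 46.1, 49.7, 53.1 and 47.2 CPM to 207, 202, 196 and 176 CPM at 5 days (1.99 ± 0.09, adjusted p = 1.2e-16), and Nrp2 from 27.3, 32.2, 34 and 27.8 CPM to 107, 121, 110.0 and 99.2 CPM (1.85 ± 0.10). For both, the 2-day and 70-day changes were smaller, 0.45 and 0.57 for Nrp1 and 1.17 and 0.57 for Nrp2.

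Plxnc1, the receptor of Sema7a and a plexin that leukocytes also express, had the largest rise of the family. It was at 3.54, 5.54, 6.33 and 2.99 CPM in uninjured libraries, 64.5, 68.1, 53.1 and 50.8 CPM at 5 days, 36.6, 72.8, 51 and 55.5 CPM at 14 days and 7.78, 6.93, 13.3 and 15.8 CPM at 70 days. The change was 3.68 ± 0.31 at 5 days (adjusted p = 6.7e-11) and 1.25 ± 0.28 at 70 days, when the lowest library lay just above the highest uninjured one. The 5-day and 14-day groups were also those with the most microglia and macrophage marker RNA (14481 to 18607 and 10547 to 15822 CPM), and at 14 days the flow-through libraries held 10316 to 12424 CPM of it.

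Plxnb1, which had the highest mean level per length in uninjured astrocytes, fell most at 2 days. Its levels were 409, 539, 721 and 621 CPM in uninjured libraries, 94.3, 131, 98.4, 89 and 103 CPM at 2 days, 248, 258, 264 and 267 CPM at 14 days and 308, 234, 262 and 313 CPM at 70 days. All injured libraries lay below the lowest uninjured one, with changes of -2.47 ± 0.15 at 2 days (adjusted p = 1.2e-14) and -1.03 ± 0.15 at 70 days. Its relative Plxnb2 moved the other way, from 130.1, 164, 168 and 159 CPM to 272, 351, 327 and 343 CPM at 14 days (1.06 ± 0.09), and did not pass the test at 2 days (0.20 ± 0.08, adjusted p = 0.034). Plxna4, a partner of Nrp1 in Sema3a signalling, was lower throughout, with changes between -1.14 at 5 days and -0.57 at 70 days.

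**Figure D2:**
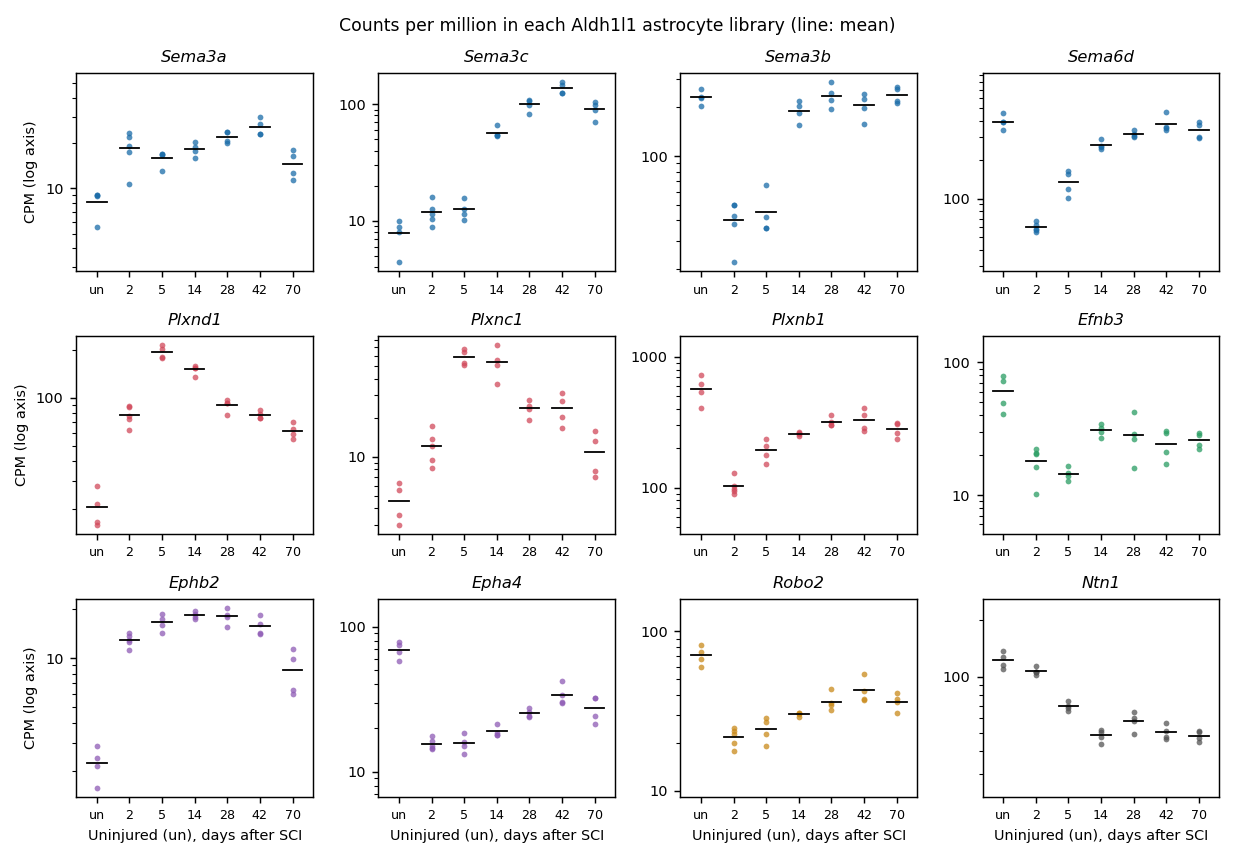
Levels (CPM, log axis) of 12 guidance genes in each Aldh1l1 astrocyte library by time after SCI, with points for libraries and a short bar at each group mean. Plxnd1, Plxnc1, Ephb2 and Sema3c lie above their uninjured libraries at 14 days, while Plxnb1, Epha4, Robo2 and Efnb3 lie below theirs at 2 days, and Sema3b overlaps its uninjured range from 14 days on.

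Most ephrins fell at 2 days. Of 8, 1 was higher and 5 lower at 2 days, 1 and 3 at 5 days, 2 and 2 at 14 and at 28 days, 1 and 2 at 42 days, and 2 and 3 at 70 days. Efna2, a ligand tethered to the membrane by a lipid anchor, dropped and stayed low, from 23.7, 24.2, 25.2 and 29.2 CPM to 5.12, 5.38, 5.55 and 4.17 CPM at 5 days and 7.67, 5.96, 6.8 and 6.28 CPM at 70 days. The groups were far apart at every time, with changes of -2.34 ± 0.15 at 5 days (adjusted p = 4.4e-14) and -1.94 ± 0.15 at 70 days. Efnb3, a transmembrane ephrin that oligodendrocytes also make, was more scattered in uninjured libraries (79.4, 72.8, 49.4 and 40.9 CPM). It was at 10.2, 22.3, 20.5, 16.3 and 20.6 CPM at 2 days and 13.9, 12.9, 16.6 and 14.6 CPM at 5 days, again without overlap (-1.75 ± 0.24 and -2.07 ± 0.26). At 28 days 1 library with 42.4 CPM reached into the uninjured range. The summed oligodendrocyte markers stood at 3254 to 7494 CPM in uninjured libraries and 1686 to 1796 CPM at 5 days. Efna1 rose late, from 4.17, 3.79, 2.94 and 2.81 CPM to 10.4, 12.1, 9.5 and 9.11 CPM at 70 days (1.58 ± 0.19, adjusted p = 6.9e-08). Its early fall, -0.64 ± 0.18 at 2 days, lost the call without uninjured replicate 1, uninjured replicate 2 or replicate 1 at 2 days (-0.59 to -0.52).

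Eph receptors held both the largest rise and the broadest early fall. Of 14, 3 were higher and 10 lower at 2 and at 5 days, 3 and 5 at 14, 28 and 42 days, and 3 and 4 at 70 days. Epha2, a receptor found on epithelia and activated glia, was low in uninjured libraries (0.378, 0.456, 0.417 and 0.439 CPM) and stood at 10.5, 11.1, 8.84, 9.7 and 10.7 CPM at 2 days. That was the largest change among the 69 genes at 2 days, 4.58 ± 0.26 (adjusted p = 3.4e-15) or 24-fold. At 70 days it was at 2.00, 1.18, 1.76 and 2.03 CPM (2.04 ± 0.25). Ephb2, a receptor of B-class ephrins at astrocyte and fibroblast contacts, rose from 1.59, 2.86, 2.16 and 2.42 CPM to 12.6, 14.3, 13.7, 12.9 and 11.2 CPM at 2 days and 17.8, 18.8, 17.3 and 19.6 CPM at 14 days. It stayed near that level to 42 days (14.2, 16.2, 14 and 18.5 CPM) and was lower at 70 days (6.02, 6.38, 9.82 and 11.3 CPM). No injured library overlapped with the uninjured ones, and the changes were 3.03 ± 0.18 at 14 days (adjusted p = 2.8e-14) and 1.89 ± 0.17 at 70 days.

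Epha4, which binds ephrins of both classes and restricts axon growth, was the Eph receptor with the highest level per length in uninjured astrocytes and fell to 16.2, 17.8, 14.6, 15.1 and 14.4 CPM at 2 days from 57.6, 67.2, 78.9 and 74.2 CPM (-2.15 ± 0.12, adjusted p = 4.6e-15). It was still at 32.4, 21.4, 24.1 and 32.4 CPM at 70 days (-1.33 ± 0.13). Ephb3, next in level, went from 31.8, 38.6, 44.2 and 44.7 CPM to 11.3, 11.1, 11.1 and 10.4 CPM at 14 days (-1.86 ± 0.14, adjusted p = 3.8e-12), with no overlap at any time. Epha10, a receptor without an active kinase, had low levels throughout (3.52, 3.11, 1.85 and 2.32 CPM uninjured and 0.291, 0.363, 0.295 and 0.367 CPM at 5 days, -3.03 ± 0.43). Epha6, the darkest of the falls in the heat map, had group means under 1 CPM throughout (0.126, 0.247, 0.78 and 0.762 CPM uninjured and 0, 0, 0.0197 and 0.0386 CPM at 5 days, -4.95 ± 1.40), was chosen for mention after its values were seen, and is imprecise. The summed markers of oligodendrocyte precursor cells (OPCs) stood at 1062 to 1450 CPM in uninjured libraries and 257 to 319 CPM at 14 days, when 2 of the 6 were called lower and 1 higher, with a median log2 change of 0.094. Ephb6, also kinase-inactive, first fell and later rose: 30.4, 36.8, 38 and 37 CPM uninjured, 7.24, 9.96, 7.94, 9.59 and 9.56 CPM at 2 days (-2.0 ± 0.16) and 71.2, 54.3, 62.1 and 58.4 CPM at 70 days (0.79 ± 0.16, adjusted p = 0.00018). Its calls at the times between were weak. At 5 days the change of -0.51 ± 0.16 lost the call when any of 5 libraries was left out (-0.49 to -0.37), namely uninjured replicates 2, 3 and 4 or replicates 2 and 3 at 5 days. At 28 days 0.55 ± 0.16 lost it without any uninjured replicate or without replicates 1, 3 or 4 (0.48 to 0.57), at 42 days 0.65 ± 0.16 lost it without replicate 2 (0.52, adjusted p = 0.011), and at 14 days it gained it without replicate 3 (0.55, adjusted p = 0.0098).

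Slits and Robos fell or did not pass the test, with 1 exception. Of 7, none was higher at 2, 5, 14, 42 or 70 days and 1 at 28 days, while 4 were lower at 2 days, 3 at 5 and at 28 days, and 2 at 14, 42 and 70 days. Robo2, a Slit receptor, was at 60.1, 73.9, 82.5 and 67.5 CPM in uninjured libraries, 17.9, 24.8, 23.8, 22.8 and 19.9 CPM at 2 days and 40.9, 35.9, 30.8 and 37.7 CPM at 70 days. No library overlapped with the uninjured group, with changes of -1.70 ± 0.13 (adjusted p = 1.1e-12) and -0.97 ± 0.13. Robo1 was lower as well, by -1.42 ± 0.14 at 2 days and -1.41 ± 0.15 at 70 days. Of the ligands, Slit2 dropped from 6.01, 6.87, 6.09 and 5.46 CPM to 2.27, 2.04, 1.73 and 2.25 CPM at 5 days (-1.56 ± 0.23, adjusted p = 1.1e-06). It was not called from 14 days on, but without replicate 1 at 70 days the change there was -0.76, adjusted p = 0.0054. Slit3 was lower at 28 days (1.6, 2.5, 1.67 and 1.76 CPM uninjured, 0.903, 0.552, 0.845 and 0.502 CPM at 28 days, -1.42 ± 0.35). Its 2-day fall, -1.03 ± 0.33, lost the call without uninjured replicate 2 or replicates 1 or 4 at 2 days (-0.94 to -0.86). Robo3, a Robo of commissural neurons, was the exception, with 0.0194, 0.228, 0.0907 and 0.0115 CPM in uninjured libraries and 2.29, 0.856, 1.76 and 0.533 CPM at 28 days (3.92 ± 0.95, adjusted p = 0.00092). The size depended on uninjured replicate 2. Without it the 28-day change was 4.98, adjusted p = 0.00042 and the 5-day one, otherwise not called, 3.60, adjusted p = 0.0042.

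Among netrins and their receptors more were lower than higher at each time. Of 9, 1 was higher and 2 lower at 2 days, 0 and 4 at 5 days, 2 and 3 at 14 and at 28 days, and 1 and 3 at 42 and at 70 days. Ntn1, the founding netrin, did not pass the test at 2 days (114, 106, 106, 106 and 102 CPM against 109.6, 115, 128 and 137 CPM in uninjured libraries, -0.20 ± 0.08, adjusted p = 0.029). It then fell to 47.8, 51.9, 43.4 and 50.8 CPM at 14 days (-1.34 ± 0.09, adjusted p = 1.1e-13) and 50.3, 50.9, 44.6 and 46.9 CPM at 70 days (-1.34 ± 0.09). This fall was larger at 14 and 70 days than at 5 days (-0.82), whereas those of Sema6d and Plxnb1 were largest at 2 days. Its repulsive receptor Unc5b was lower too, from 17.2, 19.2, 14.8 and 13.1 CPM to 8.32, 8.59, 8.49 and 8.61 CPM at 14 days (-0.92 ± 0.14). At 2 days Unc5b had a log2 change of 0.39 ± 0.14, which passed the threshold without uninjured replicate 2 (0.49, adjusted p = 0.0043) or replicate 3 at 2 days (0.44, adjusted p = 0.0071). Unc5a fell from 4.18, 4.3, 4.27 and 4.78 CPM to 0.988, 1.8, 1.24 and 0.625 CPM at 42 days (-1.91 ± 0.25, adjusted p = 1.7e-07).

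Ntn3 fell early, from 12.4, 13.7, 11.7 and 14.4 CPM to 2.94, 3.46, 2.73, 2.53 and 3.75 CPM (-2.08 ± 0.11, adjusted p = 1.6e-15). At 5 days its change was -0.42 ± 0.12, which was -0.36, adjusted p = 0.013 without uninjured replicate 4 and -0.38, adjusted p = 0.011 without replicate 2, and later changes were not called. Ntn4, a netrin of basement membranes, rose from 0.978, 1.13, 0.471 and 0.843 CPM to 1.41, 2.62, 2.92 and 2.61 CPM at 28 days (1.48 ± 0.34). Its 14-day rise of 1.28 ± 0.33 was 1.08, adjusted p = 0.011 without uninjured replicate 3 and 1.00, adjusted p = 0.015 without replicate 4, and the 70-day change became 1.15, adjusted p = 0.0052 without replicate 4. Ntn5 was among the lowest of the RNAs, 0.252, 0.114, 0.0725 and 0.0924 CPM in uninjured libraries and 1.22, 1.14, 0.67 and 1.16 CPM at 14 days (2.97 ± 0.56, adjusted p = 4.7e-05). Its 28-day call (1.86 ± 0.55) was lost without uninjured replicates 2, 3 or 4 or without replicate 3 at 28 days (1.20 to 1.8), and its 70-day call without uninjured replicate 3 (1.88, adjusted p = 0.011).

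Among other genes of guidance signalling, more were lower than higher at each time, and the shares of all genes given above for each time are the background. Of 17 further cues and receptors, 3 were higher and 12 lower at 2 days, 3 and 9 at 5 days, 2 and 7 at 14 days, 2 and 8 at 28 days, 1 and 7 at 42 days, and 1 and 9 at 70 days. Met, the receptor of hepatocyte growth factor, rose by 2.25 ± 0.16 on the log2 scale at 2 days, and Rgma, a repulsive cue whose receptor is neogenin, had a change of -2.26 ± 0.11. The gene of neogenin itself, Neo1, which also binds netrins, had one of -0.91 ± 0.09, and Flrt1, a partner of Unc5 receptors, one of -3.78 ± 0.23 at 5 days. Of 34 cytoplasmic effectors of guidance receptors, 9 were higher and 13 lower at 2 days, 8 and 15 at 5 days, 10 and 14 at 14 days, 8 and 17 at 28 days, 6 and 17 at 42 days, and 7 and 19 at 70 days. Those higher at all 6 times included the small GTPases Cdc42 (1.01 ± 0.07 at 2 days) and Rhoa (0.65 ± 0.06), the actin-severing Cfl1 (1.07 ± 0.09) and Dpysl3 (1.32 ± 0.16), a collapsin response mediator. Those lower at all 6 included the Rac regulators Chn1 (-1.63 ± 0.09) and Srgap3 (-1.48 ± 0.11) and the kinase Fyn (-0.75 ± 0.08).

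In the flow-through, which holds unbound RNA of all cord cells, neurons included, the guidance genes were lower more often than higher at every time. Members higher and lower numbered 24 and 29 at 2 days (32.6% and 32.9% of all 19207 genes), 20 and 28 at 5 days (27.7% and 21.8%), 18 and 23 at 14 days (24.6% and 19.5%), 16 and 32 at 28 days (26.4% and 22.6%), 19 and 28 at 42 days (25.3% and 19.2%), and 15 and 24 at 70 days (21.8% and 15.7%). Scaled by relative log expression (RLE) in place of TMM, the median of all genes shifted by -0.09 to -0.136, and members higher and lower numbered 22 and 30, 18 and 31, 17 and 28, 16 and 36, 15 and 31, and 13 and 25. Calls over all genes moved the same way, with 46.2% to 51.1% of them higher under RLE in place of 49.8% to 58.1%. At 1 or more times 66 of 69 members passed the test (95.7% against 78.2% of all genes). Higher at all 6 times were 12 (17.4% against 15.4%): Efna1, Efna4, Efnb1, Efnb2, Ephb4, Nrp1, Nrp2, Ntn1, Plxnb2, Plxnc1, Plxnd1 and Sema3d. Lower at all 6 times were 14 (20.3% against 10.7%): Efna3, Efnb3, Epha5, Epha10, Ephb1, Ephb6, Robo2, Sema4f, Sema4g, Sema6b, Slit1, Slit3, Unc5a and Unc5b.

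The largest rises in flow-through were those of Efna4, an A-class ephrin, from 1.09, 1.07, 0.636 and 0.766 CPM to 11.4, 17.6, 15.6, 8.49 and 12.7 CPM at 2 days (3.88 ± 0.25, adjusted p = 4.2e-14), of Plxnd1, from 15.1, 20.9, 16.3 and 12.7 CPM to 183, 259, 167, 254 and 177 CPM (3.68 ± 0.17), and of Nrp1, from 39.2, 41.7, 34.5 and 33.5 CPM to 449, 478, 398, 429 and 389 CPM (3.53 ± 0.13). None of the 2-day libraries overlapped with the uninjured ones for these genes. The largest falls were also at 2 days and left libraries of Efna3 and Epha6 at 0. Efna3 went from 21.5, 21.5, 22.6 and 24 CPM to 0.989, 0, 0.409, 0.886 and 1.2 CPM (-4.96 ± 0.43), Epha6 from 3.4, 4.06, 4.46 and 4.09 CPM to 0.24, 0, 0.394, 0 and 0 CPM and Epha10 from 29.7, 36.5, 36.6 and 31.8 CPM to 0.36, 1.61, 3.36, 1.23 and 0.739 CPM. The fitted changes of the last 2, -4.90 ± 0.75 and -4.53 ± 0.36, were -5.89, adjusted p = 2.2e-07 and -5.12, adjusted p = 2.5e-14 without replicate 3 at 2 days. At 42 days the fall of Epha6 (-2.66 ± 0.73) lost the call without replicate 4 (-2.58, adjusted p = 0.01). The summed neuron markers of this fraction stood at 9304 to 10795 CPM in uninjured libraries and 432 to 1075 CPM at 2 days, and the microglia and macrophage markers at 391 to 483 and 9081 to 13088 CPM. Their part in these changes was not tested.

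Some genes moved in opposite directions in the tagged and the unbound RNA. At 2 days Sema3a and Sema7a were higher in astrocytes and lower in flow-through, and 8 genes (Efna1, Efna2, Efna5, Epha3, Epha7, Ephb3, Ephb4 and Ntn3) were lower in astrocytes and higher in flow-through. These were 2.9% and 11.6% of members, where the same patterns held for 4.33% and 5.16% of the 17981 genes tested in both fractions. At 28 days 7 genes (Ephb2, Ephb6, Ntn4, Plxna1, Sema3f, Sema4f and Sema6b) were higher in astrocytes and lower in flow-through, 10.1% against 1.74% of all genes, and Ntn1 was the 1 gene with the reverse pattern (1.45% against 1.7%). At 5, 14, 42 and 70 days the first pattern held for 2, 4, 4 and 4 members (1.42%, 1.51%, 1.39% and 1.02% of all genes) and the reverse for 6, 1, 2 and 1 (2.66%, 1.94%, 1.76% and 1.43%). For Ephb2 the flow-through stood at 19.1, 19.8, 20.2 and 20.6 CPM in uninjured mice and 10.3, 10.2, 11.7 and 12.3 CPM at 28 days (-0.84 ± 0.12). Ntn1 rose there from 28.5, 37.5, 24.4 and 20.7 CPM to 67.7, 96.1, 82.6, 59.9 and 84.8 CPM at 2 days (1.49 ± 0.16) and was at 71.1, 71.9, 65.2 and 68.2 CPM at 28 days, when it was lower in the astrocytes of the same mice (-1.08 ± 0.08). The 2 fractions were fitted apart, and the difference between their changes was not tested.

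**Figure D3:**
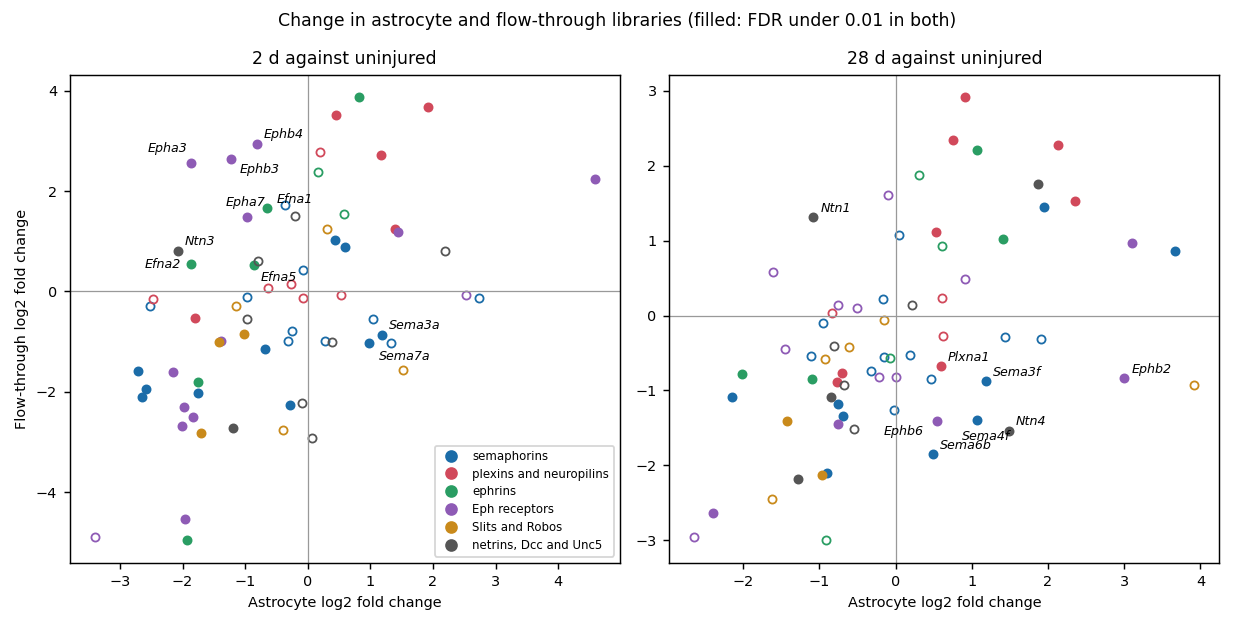
Log2 fold change after SCI in Aldh1l1 astrocytes (horizontal axis) against that in flow-through (vertical axis) for the 69 guidance genes at 2 and 28 days, filled where the gene was called in both and labelled where the directions were opposite. At 2 days the labels fall mostly in the quadrant of lower in astrocytes and higher in flow-through (8 genes), and at 28 days in the quadrant of higher in astrocytes and lower in flow-through (7 genes).

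Set against the flow-through of the same animals, more guidance RNAs were depleted from tagged RNA than concentrated in it. In uninjured Aldh1l1 mice 15 of 69 members were at least 2-fold higher in astrocytes and 32 at least 2-fold lower, against 18.9% and 22.2% of 17595 genes. The share of members lower lay well above that of all genes, and the share higher lay near it. Plxnb1 was at 475, 617, 818 and 703 CPM in astrocytes and 28.7, 38.1, 39 and 30.3 CPM in flow-through (4.26 ± 0.18, adjusted p = 2.7e-09), Sema3b at 263, 296, 264 and 231 and 31.9, 28.9, 28.7 and 23.1 CPM (3.23 ± 0.11), and Ephb3 at 36.9, 44.3, 50.2 and 50.6 and 6.73, 6.7, 7.43 and 7.78 CPM (2.67 ± 0.12). The fractions were well apart for all 3. At the other end were Sema4f (-4.60 ± 0.13), Efna3 (-4.14 ± 0.14) and Robo4, a Robo of endothelia (-4.04 ± 0.24), with 0.288 to 0.393 CPM in astrocytes and 4.14 to 6.66 CPM in flow-through. At P63 in the mGfap line 13 members were higher and 27 lower (17.8% and 23.1% of 17136 genes), led by Sema3b (4.49 ± 0.13), Plxnb1 (3.75 ± 0.10) and Sema4b (2.36 ± 0.07) and, lower, by Efna3 (-4.84 ± 0.28), Robo4 (-4.20 ± 0.50) and Epha6 (-4.20 ± 0.59; without replicate 4 -4.85, adjusted p = 6.2e-06).

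At 14 days after SCI other members were among those enriched, though the difference from the uninjured enrichment was not tested. In Aldh1l1 mice 13 members were higher and 30 lower (15.4% and 18.9% of 17752 genes), and Plxnb1 was still enriched (2.67 ± 0.10). Sema3c, at -0.43 ± 0.23 in uninjured mice, was now enriched, with 73.4, 60.6, 61.9 and 59.7 CPM in astrocytes and 13.4, 9.64, 16.1 and 10.2 CPM in flow-through (2.38 ± 0.15, adjusted p = 1.3e-08). Plxnc1 was enriched as well, 41, 81.3, 57.6 and 62.3 CPM against 20.3, 29.7, 23.5 and 22.4 CPM (1.34 ± 0.18). Ephb2, depleted in uninjured astrocytes (-2.78 ± 0.17), did not differ past the threshold at 14 days (0.15 ± 0.08), and neither did Ephb3 (0.08 ± 0.09) or Ntn1 (-0.33 ± 0.11, adjusted p = 0.015), which was enriched in uninjured mice (2.50 ± 0.16). In mGfap mice at 14 days 22 members were higher and 16 lower (15.6% and 18.7% of 17746 genes), led by Plxnb1 (3.15 ± 0.20), Sema6d (3.03 ± 0.25) and Sema3b (2.65 ± 0.14) and, lower, by Robo4 (-4.43 ± 0.36), Epha8 (-3.99 ± 0.45) and Efna3 (-2.73 ± 0.50).

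In the mGfap line guidance genes rose far more often than they fell. At 14 days after SCI against P63, 38 members were higher and 9 lower, against 27.7% and 16.4% of 17848 genes, and the median log2 change was 0.668 where that of all genes was 0.169. By family 15 of 20 semaphorins were higher and 2 lower, 8 of 11 plexins and neuropilins and 1, 4 of 8 ephrins and 0, 5 of 14 Eph receptors and 3, 1 of 7 Slits and Robos and 3, and 5 of 9 netrins and netrin receptors and 0. The injured mice were female and 3 of the 5 uninjured ones male, and with labelled sex as a covariate 25 members were higher. Only the P63 group of this fit held both sexes, so the covariate rests on those 5 mice. An effect of sex and a loss of precision cannot be told apart. The injured mice had SCI at 2 to 4 months of age, so injury and age beyond P63 cannot be told apart either. The tagged RNA of the 2 lines also held different marker levels. The summed oligodendrocyte markers stood at 25638 to 38589 CPM in mGfap mice at 14 days, 8909 to 12533 CPM at P63 and 2090 to 2687 CPM in Aldh1l1 mice at 14 days. The microglia and macrophage markers were at 282 to 2257 CPM in mGfap mice and 10809 to 16046 CPM in Aldh1l1 mice at 14 days, and the Schwann cell markers at 3829 to 6872 CPM in the former. At 14 days 5 of 6 Schwann cell and 6 of 6 OPC markers were higher in mGfap than in Aldh1l1 mice (median log2 differences 3.307 and 2.51). Of 8 neutrophil markers, 8 were lower in uninjured mGfap mice and 5 at 14 days (-5.559 and -3.648). Of 6 ependymal markers, 5 were higher in uninjured mGfap mice and 3 at 14 days (1.68 and 1.355). Their part in the differences between lines was not tested.

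Between uninjured mice of the lines 15 members were higher and 10 lower in mGfap astrocytes (5.54% and 6.86% of all genes). The Aldh1l1 mice were all female, and with labelled sex as a covariate the counts were 7 and 4. That covariate again rests on the P63 group alone. By the ages the authors give, the Aldh1l1 mice were older than P63. Line and age thus cannot be told apart, here or in the difference of the changes below. At 14 days 24 were higher and 11 lower (12.0% and 11.4%), or 7 lower without Aldh1l1 14-day replicate 2. The change from uninjured to 14 days itself differed between the lines for 24 members, 19 with the higher and 5 with the lower change in mGfap mice, against 7.71% and 4.94% of all genes. Under RLE scaling the split of members was 18 and 6, and over all genes the share of higher calls was 49.0% in place of 60.9%. The lower 5 were all among semaphorin signalling genes that had risen in Aldh1l1 mice: Plxnc1, Sema3c, Nrp2, Nrp1 and Plxnb2.

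Sema7a, a lipid-anchored semaphorin, had the largest difference among the 24. It was at 24.1, 27.4, 19.1 and 19.2 CPM in uninjured and 23.6, 20.1, 21.1 and 25.6 CPM in 14-day Aldh1l1 astrocytes. In the mGfap line it was at 18.9, 16.2, 17.9, 11.5 and 17.4 CPM at P63 and 106, 102, 149, 166 and 131 CPM at 14 days. Only the 14-day mGfap libraries stood apart, and the difference of the changes was 2.99 ± 0.23 (adjusted p = 7.7e-08). Plxnb3, a receptor of Sema5a, was at 13.1, 16.1, 11.4 and 11.1 and 10.3, 10.7, 9.14 and 9.37 CPM in Aldh1l1 mice and at 23.5, 21, 32.3, 17.4 and 26.8 and 71.2, 76.3, 99.6, 92.3 and 104 CPM in mGfap mice. All mGfap libraries lay above all Aldh1l1 libraries, and the gap was wider after SCI (2.26 ± 0.23, adjusted p = 1e-06). Epha10 fell in Aldh1l1 mice, from 3.51, 3.1, 1.86 and 2.31 to 0.644, 0.845, 0.615 and 0.665 CPM, and stood at 1.27, 1.12, 1.96, 1.98 and 2.34 and 1.89, 2.94, 2.52, 3.74 and 3.41 CPM in mGfap mice. The difference was 2.70 ± 0.38 (adjusted p = 4.4e-05), while the mGfap change alone, 0.74 ± 0.25, was called only without replicate 1 at 14 days (0.86, adjusted p = 0.0058) or P63 replicate 5 (0.87, adjusted p = 0.0097).

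In the other direction Plxnc1 was at 5.17, 6.86, 3.48, 5.55 and 4.99 CPM at P63 and 6.75, 18.4, 6.61, 11.9 and 7.48 CPM at 14 days in mGfap mice, where Aldh1l1 mice at 14 days had 37.5, 73.8, 52.2 and 56.7 CPM. The 14-day groups of the lines did not overlap, and the difference of the changes was -2.61 ± 0.43 (adjusted p = 0.00025). The mGfap change of 0.97 ± 0.29 lost its call when any of 6 libraries was left out (0.65 to 1.00), namely replicates 2 or 4 at 14 days or replicates 1, 3, 4 or 5 at P63. Sema3c rose in both lines, from 14.9, 19.2, 18, 13.7 and 17 to 36.4, 55.2, 38.5, 40.6 and 50.8 CPM in mGfap mice (1.42 ± 0.17), by less than in Aldh1l1 mice (-1.48 ± 0.26, adjusted p = 0.00034). Nrp2 was at 27.6, 36.3, 28.3, 32.5 and 38.9 and 37.5, 37.4, 29.4, 40.4 and 35.9 CPM in mGfap mice, with overlapping groups, and at 59.4, 79.4, 67.4 and 69.4 CPM in Aldh1l1 mice at 14 days (-1.04 ± 0.17, adjusted p = 0.00017).

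**Figure D4:**
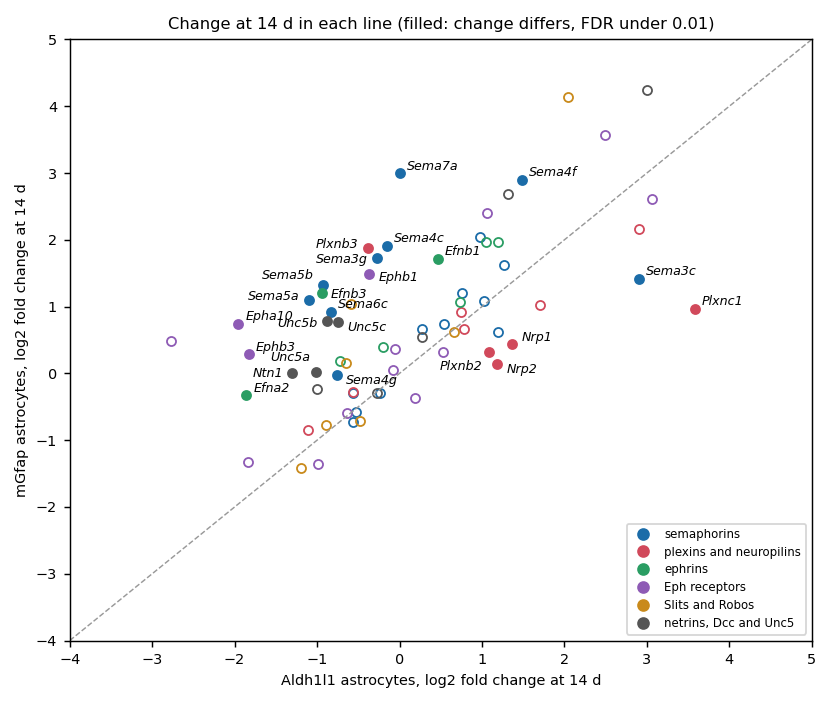
Log2 change at 14 days after SCI in Aldh1l1 astrocytes (horizontal axis, against uninjured) and in mGfap astrocytes (vertical axis, against P63) for the 69 guidance genes, filled and labelled where the change differed between the lines, with a dashed line of equality. Of the 24 filled points 19 lie above the line, Sema7a farthest (2.99), and 5 below it, Plxnc1 farthest (-2.61).

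Over postnatal development guidance genes fell in mGfap astrocytes. Against P0, 52 of 69 members were lower at P63 and 6 higher, where lower and higher genes were each 25.1% of all 18041. The median log2 change of members was -1.669. By family 14 of 20 semaphorins were lower and 2 higher, 10 of 11 plexins and neuropilins and 1, 5 of 8 ephrins and 1, 11 of 14 Eph receptors and 1, 6 of 7 Slits and Robos and 0, and 6 of 9 netrins and netrin receptors and 1. All P0 mice were male and 3 of the 5 P63 mice, and the P0 libraries held less astrocyte marker RNA. Replicate 3 had 6712 CPM of astrocyte markers, where the other 3 had 14329 to 18342 CPM, and P63 libraries 55784 to 63124 CPM. The summed stroma markers were at 3859 to 9408 CPM at P0 and 177 to 291 CPM at P63 (8 of 8 lower), the endothelial markers at 37.2 to 109 and 5.46 to 9.6 CPM (6 of 6 lower), and the oligodendrocyte markers at medians of 4778 and 13263 CPM (8 of 10 higher). The Schwann cell markers were at 7876, 13113, 23303 and 13650 CPM at P0. At P63 2 of the 6 were lower, with a median log2 change of -2.024. The part of these other cells in the falls was not tested. Without P0 replicate 3, 50 members were lower and 7 higher.

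The steps between these ages held fewer calls. From P0 to P7 3 members were higher and 18 lower (12.5% and 7.54% of all genes), or 4 and 20 without P0 replicate 3. These counts depended on the fit, with 0 higher and 3 lower in a fit of the 2 ages alone and 9 lower without P7 replicate 3. From P7 to P21 5 were higher and 20 lower (8.01% and 7.33%), with 11 higher in a fit of the 2 ages alone and 3 without P7 replicate 1. From P21 to P63 1 was higher, 0 without P21 replicate 3, and 15 lower (3.8% and 5.42%). Slit1, a Slit of the embryonic midline, had the largest fall. It was at 164, 144, 52 and 159.8 CPM at P0, 46.1, 32.4 and 37.7 CPM at P7, 2.32, 2.76, 1.91 and 3.94 CPM at P21 and 0.433, 0.417, 1.31, 1.01 and 1.61 CPM at P63 (-7.08 ± 0.42, adjusted p = 3.9e-13), with no overlap between P0, P7 and P21. The lowest P0 value was that of replicate 3. Ntn5 went from 24.4, 12.3, 46.3 and 9.38 CPM at P0 to 0.179, 0.181, 0.379, 0.294 and 0.385 CPM at P63 (-6.34 ± 0.79, adjusted p = 1.5e-07), or -5.73, adjusted p = 8.2e-07 without P0 replicate 3, which was the highest. Epha2, which rose after SCI, went from 9.85, 5.72, 12.4 and 2.18 CPM to 0, 0.347, 0.392, 0.153 and 0.533 CPM (-4.72 ± 0.69), 1 of the P63 libraries being at 0.

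The 6 members higher at P63 were Efna2, Epha4, Plxnb1, Sema4a, Sema4d and Unc5b. Unc5b, a netrin receptor also known from blood vessels, was at 4.5, 7.95, 0.358 and 3.97 CPM at P0, 8.16, 10.0 and 10.1 CPM at P7, 63.4, 58.3, 59.2 and 64.9 CPM at P21 and 68.2, 40.4, 67.1, 45.8 and 57.6 CPM at P63. The groups of P0 and P63 were far apart (3.73 ± 0.43, adjusted p = 6.9e-08), and the lowest P0 value was again that of replicate 3. Plxnb1 was at 246, 302, 147 and 294 CPM at P0 and 424, 487, 424, 461 and 586 CPM at P63 (0.95 ± 0.22), and its ligand Sema4d at 26.5, 28.4, 43.1 and 31.7 and 58.1, 62, 75.3, 57.2 and 92 CPM (1.09 ± 0.18). For Sema4d the highest levels lay between, with 161, 190.1, 184 and 153 CPM at P21, after which it fell (-1.32 ± 0.18). In uninjured Aldh1l1 mice Unc5b was lower in astrocytes than in flow-through (-2.36 ± 0.12). Sema4d, at -0.99 ± 0.16, fell short of 2-fold, whereas Efna2, Epha4, Plxnb1 and Sema4a were called higher there. Of 10 oligodendrocyte markers, 9 were higher at P21 than at P7, and 5 were lower at P63 than at P21. The part of other cells in these rises was not tested.

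**Figure D5:**
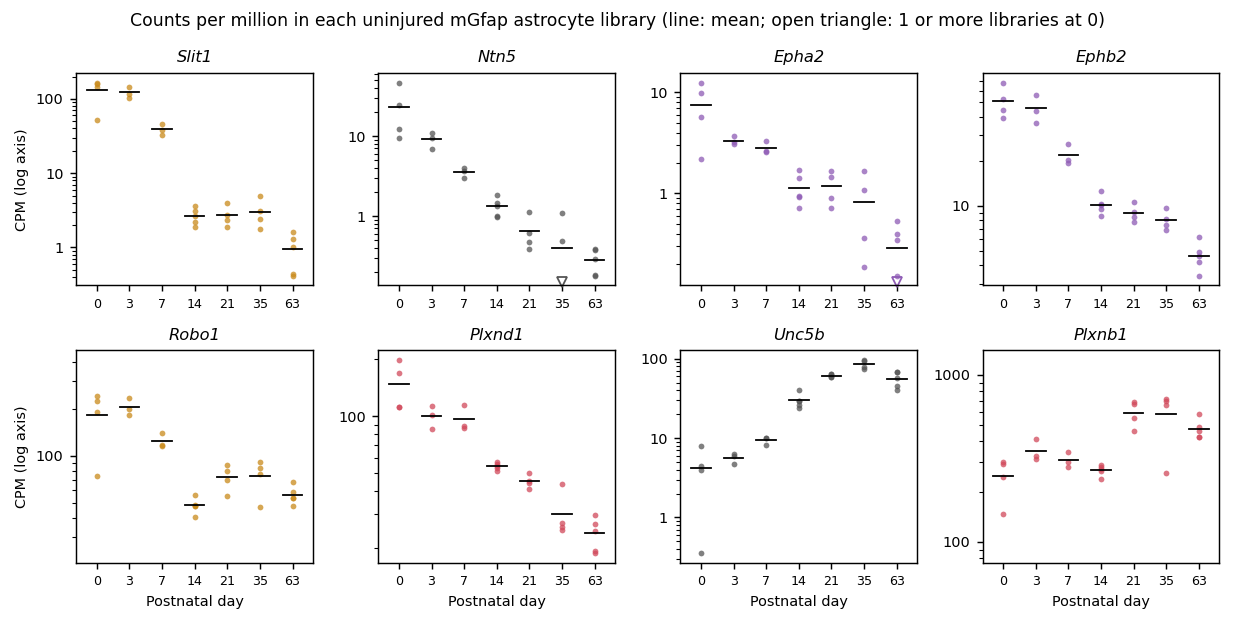
Levels (CPM, log axis) of 8 guidance genes in each mGfap astrocyte library from P0 to P63, with points for libraries, a short bar at each group mean and an open triangle at the foot of a panel where 1 or more libraries were at 0. Slit1, Ntn5, Epha2 and Ephb2 descend from P0 to P63, while Unc5b ascends to P35. No comparison with P35 was tested. At P35, replicate 1 held 4331 CPM of neuron markers (others 545 to 806) and replicate 3 held 12935 CPM of Schwann cell markers (others 1138 to 5598).

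The development and injury comparisons, in different lines and with no library in common, were set side by side. Of the 52 members lower at P63 than at P0, 17 were higher in Aldh1l1 astrocytes 14 days after SCI (32.7% of that list, 77.3% of the 22 higher after SCI) and 12 lower (23.1% of that list, 60.0% of the 20 lower after SCI). Among all genes lower at P63 the shares corresponding to 32.7% and 23.1% were 35% and 16.0%. As 52 of all 69 members were lower at P63, the 77.3% lay near the members' own share. At 2 days 28.8% of the 52 were higher and 40.4% lower, against 44.2% and 21.6% of all genes lower at P63, and at 5 days 26.9% and 42.3%, against 44.1% and 20.3%. Of the 6 members higher at P63, 5 were lower at 14 days after SCI (Efna2, Epha4, Plxnb1, Sema4a and Unc5b, 25% of the 20) and 1 higher (Sema4d). Among all genes higher at P63, 42.1% were lower at 14 days.

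Between male and female Aldh1l1 astrocytes at 5 and 14 days after SCI none of the 68 members tested differed in edgeR's test (8 libraries a sex, time as a covariate), where 9 of 17639 genes did (0.051%). At an unadjusted p under 0.05 there were 7 members, 2 of them higher in males. DESeq2 called 0, and fits of 5 or 14 days alone 0 each. The member with the smallest p was Ephb3 (0.32 ± 0.07 in males against females, adjusted p = 0.29).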

How the data were processed

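RNA on immunoprecipitated astrocyte ribosomes and flow-through RNA were sequenced as poly-A libraries (paired reads, NovaSeq). After trimming (Trimmomatic) and alignment to mm10 (HISAT2), the authors deposited raw counts per gene from featureCounts in Galaxy with default settings, which use no strand, so overlapping and antisense genes cannot be told apart. Entrez identifiers were matched to RefSeq symbols (25275 of 27179), and all 69 members matched. The members and gene lists were chosen with earlier results of these data known. Counts were fitted with edgeR 4.0.16 in R 4.3.3 (TMM scaling, filterByExpr, robust quasi-likelihood F test), in separate fits for time course, flow-through, lines with their interaction, age, sex, and each astrocyte and flow-through pair of groups, with Benjamini-Hochberg adjustment over all genes and a threshold of 0.01, plus 2-fold for enrichment. The SE of a log2 fold change was its size divided by the root of F. CPM use each fit's own scaling, so values of 1 library differ slightly between fits, and RPKM use the union of curated RefSeq exons. Scripts were tested on simulated data. Named genes were the members of each family with the largest changes (mean of at least 1 CPM in a group), those changed one way at all 6 times and the 2 per family with the highest uninjured RPKM, and in other comparisons the 3 largest in each direction. Opposite-direction genes and leave-one-out values were added after values were seen. Both fractions were sequenced for 47 animals, and their deviations from group means correlated at a median of 0.34 (40 of 47 over 0.1). Replicates were separate animals and no library pair was identical, and p-values measure the spread between them. Alternatives were RLE scaling, no low-count filter, DESeq2 1.42.0, FDR under 0.05, 2 groups alone, labelled sex, replicate blocks and leaving out each library.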

Additional observations from a re-analysis of the deposited data

Results flagged for a closer look

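Among 152 groups of 4 or 5 libraries of the named genes, 6 held a library apart from the rest by Dixon's test, and chance alone gives about 1 in 20. In uninjured Aldh1l1 astrocytes Ephb6 replicate 1 was at 30.4 CPM (others 36.8 to 38.0) and Sema3a replicate 4 at 5.53 CPM (8.9 to 9.07). At 14 days after SCI Ntn5 replicate 3 was at 0.67 CPM (1.14 to 1.22) and Sema3c replicate 1 at 67.3 CPM in the scaling of the line comparison (54.3 to 56.2). In flow-through of mGfap mice at P63 Sema3b replicate 2 was at 19.9 CPM (13.2 to 15) and Plxnb1 replicate 5 at 42.4 CPM (34.3 to 36.2).

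The change at 14 days after SCI differed between the mGfap and Aldh1l1 lines, by the interaction term of the edgeR fit, for 24 of the 69 guidance genes. Among the genes named, the difference (mGfap minus Aldh1l1, log2) was 2.99 ± 0.23 for Sema7a, 2.70 ± 0.38 for Epha10, 2.26 ± 0.23 for Plxnb3, -2.61 ± 0.43 for Plxnc1, -1.48 ± 0.26 for Sema3c and -1.04 ± 0.17 for Nrp2. The tagged RNA of the lines also differed in oligodendrocyte, microglia and other markers, and the uninjured mice differed in age and sex. The part of these in the differences was not tested.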

How the results depend on the processing

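Of 4017 values of named genes under alternatives, 3920 kept their direction and side of the threshold, 62 fell short of it, 35 newly passed it, and 7 values that were not called changed sign; no called value reversed. Counts of members moved by over 1.5 times in these cases, and the causes were not tested beyond what each alternative leaves out. For mGfap astrocytes at 14 days against P63, members higher were 25 with labelled sex as a covariate in place of 38 (34 to 39 when single libraries were left out). Between uninjured mGfap and Aldh1l1 mice, members higher were 7 with sex as a covariate in place of 15, and members lower 4 with sex and 18 at FDR under 0.05 in place of 10. At 14 days members lower between the lines ranged from 7 (without Aldh1l1 14-day replicate 2) to 12 in place of 11 when libraries were left out. For P7 against P0, members higher were 5 at FDR under 0.05 and 0 in a fit of the 2 groups alone in place of 3, and members lower 3 in the fit of the 2 groups alone, which has fewer libraries, in place of 18, and 9 (without P7 replicate 3) to 21 when libraries were left out. For P21 against P7, members higher were 8 at FDR under 0.05, 11 with the 2 groups alone and 3 (without P7 replicate 1) to 5 with libraries left out, in place of 5. For P63 against P21, members higher were 0 (without P21 replicate 3) to 1, in place of 1. Members enriched at P63 in mGfap mice numbered 20 without the 2-fold limit in place of 13. All other counts stayed within 1.5 times.

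Replicate numbers did not pair samples across groups: correlations of deviations between same-numbered libraries had medians from -0.043 to 0.121, and in the astrocyte time course 6 of 29 libraries correlated best with their own number. With the replicate number as a block, 61 members changed at 1 or more times in astrocytes in place of 62, and with the animal as a block 34 members in place of 32 were lower in uninjured astrocytes than in flow-through. The block moved no count by over 1.5 times. At these depths Robo3, Ntn5 and Epha2 in uninjured astrocytes lay under 1 CPM. The changes of Robo3 and Ntn5, like that of Epha6, are imprecise, with larger SEs than those of Epha2.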
